A study of Homo sapiens with 6 samples.

Results

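The early growth response (EGR) transcription factors and the serum response genes around them were followed in K562, a human cell line established from chronic myelogenous leukaemia. The set was taken by symbol from the deposited count tables and held 10 of the 23710 genes listed there. These were EGR1, EGR2, EGR3 and EGR4, the corepressors NAB1 and NAB2, and the serum response factor SRF. The others were the immediate early response genes IER2, IER3 and IER5. The treated group (3 libraries) had received 3FM-dC at 20 µM together with THU at 2 mM, and the control group (3 libraries) only DMSO, the solvent of both compounds, each for 24 h. All cells were at passages 13 to 16 and grew in medium with 10% serum. The treated group differed from the controls by both compounds, so their effects cannot be told apart. The series is presented as work on a small molecule that activates TET2, and its design asked which transcripts 3FM-dC alters.

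Immediate early genes are switched on by growth factors and stress without new protein synthesis. SRF sits on CArG boxes in their promoters and is activated by ternary complex factors, which ERK kinases phosphorylate, or by cofactors that sense actin. EGR proteins bind GC-rich sites through zinc fingers. NAB1 and NAB2 bind EGR1 and some other EGR proteins and repress them, and NAB2 is itself an EGR target, which closes a feedback loop. K562 cells carry the BCR-ABL1 fusion kinase, which keeps the RAS and ERK pathway active.

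Promoters of 8 of the 10 genes were matched by symbol in the RefSeq promoter table (build GRCh38.p14), which spans 250 bases before to 50 after each annotated start. They are shown to place the sites named above, and give a comparison between members that rose, the member that did not pass the test (SRF), and one barely detected (EGR2). Capitals mark matches to the CArG box or to the EGR motif GCGNGGGCG, each searched on both strands. The EGR1 stretch, at chr5:138465229-138465478 on the plus strand, held 2 CArG boxes and 1 EGR motif, the latter the first run in capitals. The stretch before the third listed start of EGR2, at chr10:62816367-62816616 on the minus strand, held 1 CArG box. That of SRF, at chr6:43171019-43171268 on the plus strand, held 1 EGR motif followed by 2 CArG boxes. That of IER5, at chr1:181088450-181088699 on the plus strand, held neither. For NAB2 only the EGR motif and 10 bases on each side are given, at chr12:57089042-57089070 on the plus strand. This NAB2 stretch lies before the RefSeq start but overlaps a NAB2 exon annotated in GENCODE 29. All are written from 5′ to 3′.
EGR1: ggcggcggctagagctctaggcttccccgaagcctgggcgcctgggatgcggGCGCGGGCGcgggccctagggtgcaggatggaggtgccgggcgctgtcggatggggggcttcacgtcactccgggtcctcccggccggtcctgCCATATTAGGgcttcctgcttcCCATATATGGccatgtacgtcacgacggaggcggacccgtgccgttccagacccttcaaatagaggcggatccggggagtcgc
EGR2: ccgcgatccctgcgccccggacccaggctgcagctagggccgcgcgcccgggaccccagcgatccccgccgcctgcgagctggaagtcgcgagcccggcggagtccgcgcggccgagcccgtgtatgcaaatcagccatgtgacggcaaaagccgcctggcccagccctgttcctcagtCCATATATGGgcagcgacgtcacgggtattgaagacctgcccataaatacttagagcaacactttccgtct
SRF: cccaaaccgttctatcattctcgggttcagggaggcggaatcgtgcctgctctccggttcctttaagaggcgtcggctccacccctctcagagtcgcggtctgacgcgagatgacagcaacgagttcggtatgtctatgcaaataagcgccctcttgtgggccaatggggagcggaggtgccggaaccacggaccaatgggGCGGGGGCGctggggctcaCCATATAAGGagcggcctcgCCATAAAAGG
IER5: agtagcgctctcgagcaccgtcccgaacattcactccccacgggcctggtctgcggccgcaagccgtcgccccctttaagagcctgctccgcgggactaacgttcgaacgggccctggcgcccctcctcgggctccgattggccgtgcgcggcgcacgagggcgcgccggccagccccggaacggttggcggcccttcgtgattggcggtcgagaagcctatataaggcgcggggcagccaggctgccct
NAB2: tgtgcgtcctGCGGGGGCGgaggcgcgga

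Of the 35116 promoter windows of 300 bases in that table, 1.29% held a CArG box and 9.43% an EGR motif. These shares are per window, and EGR2, NAB1 and SRF had several windows each. Among the members the CArG box was found for EGR1, in the third window of EGR2 and in the first of SRF. The EGR motif was found for EGR1 and NAB2, in the second window of EGR2 and in the first of SRF. It was also found in the first and second windows of NAB1, with up to 4 matches in a window. Those windows of NAB1 overlap, and sites in the shared part were counted in both. Some matches for EGR2 and NAB1 lay after the start and are not among the printed bases. The window of IER2 held neither. The cyclic AMP response half-site TGACG, present in 24.6% of windows, occurred for EGR1, EGR2, EGR4, NAB1, SRF and IER2. These matches describe letters only. The EGR1 window and the first SRF window each had 2 CArG boxes.

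EGR1, NAB2, IER2, IER3, IER5 and NAB1 were higher in treated cells. The rises were largest for IER3 (4.26-fold), EGR1 (2.92-fold) and NAB2 (2.51-fold). NAB1 and SRF were within 1.13-fold of the DMSO level, EGR2 and EGR3 were at the edge of detection and EGR4 had no count. A gene counted as changed at a Benjamini-Hochberg adjusted p under 0.05 in edgeR's quasi-likelihood test over all 12339 genes that passed a filter on low counts. By that rule 6 of the 7 tested members were higher and 0 were lower (0 also at an unadjusted p under 0.05 and with DESeq2), while 66.4% of all tested genes changed, 33.8% higher and 32.7% lower. NAB1 is among the 6, but DESeq2 called only the other 5 (its adjusted p for NAB1 was 0.0595). All 7 tested members had groups that did not overlap with the treated libraries above, as did 35.5% of all tested genes, and 70.0% did not overlap in either direction. In these bulk libraries a change in the level per cell and a change in the share of cells with the transcript cannot be told apart.

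**Figure D1:**
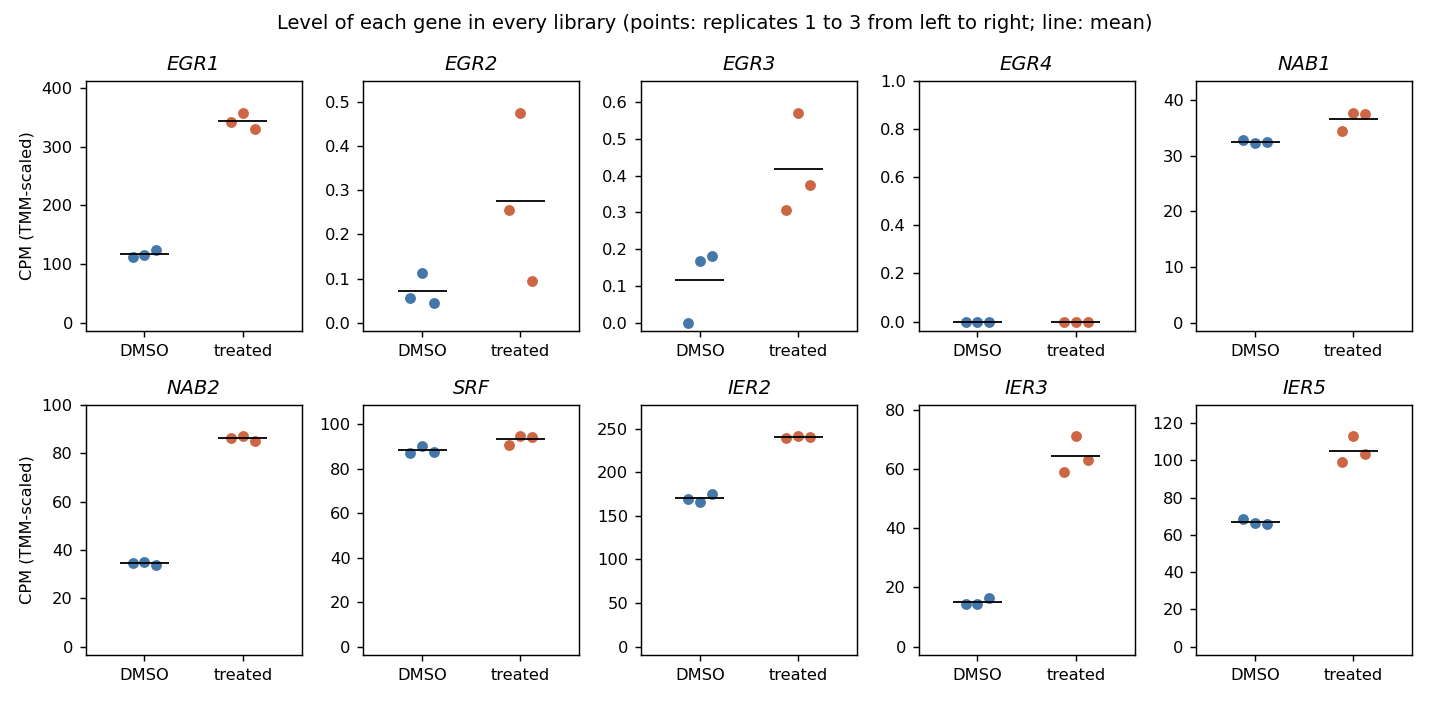
Level of each of the 10 genes in every library, in CPM (counts relative to the TMM-scaled library size) on linear axes; points are replicates 1 to 3 from left to right in the DMSO and treated groups, and lines are means. EGR1, NAB2, IER2, IER3 and IER5 lie well apart between the groups, SRF and NAB1 by little, and the axes of EGR2, EGR3 and EGR4 end at or below 1 CPM.

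The EGR factors were almost entirely EGR1, a zinc finger activator induced by growth signals and stress. Levels are in CPM, reads of the gene relative to the TMM-scaled library size. EGR1 had 112, 116 and 124 CPM in DMSO replicates 1, 2 and 3, and 342, 358 and 330 CPM in treated replicates 1, 2 and 3. Every treated library thus lay above every DMSO library, and the gap between the groups exceeded the spread within either. The log2 fold change was 1.54 (SE 0.04, 95% interval 1.46 to 1.63, edgeR adjusted p = 2.61e-22). It ranked 692 of 12339 from the highest log2 fold change, and by mean CPM EGR1 lay above 92.9% of tested genes.

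EGR2, an EGR factor best known from nerve myelination and from lymphocytes, had 1, 2 and 1 counts in DMSO and 5, 10 and 2 in treated replicates 1, 2 and 3. The groups overlapped, with 2 counts in both DMSO replicate 2 and treated replicate 3, too few to order these libraries. EGR3, which acts beside EGR2 in lymphocytes and nerve, had 0, 3 and 4 counts in DMSO and 6, 12 and 8 in treated replicates. Its counts did not overlap between the groups, but with 7 counts in all DMSO libraries this order is not firm. Neither gene passed the count filter. From the summed counts per scaled library size, the treated-to-DMSO ratio was 3.98 for EGR2 (exact 95% binomial interval 1.30 to 16.2) and 3.48 for EGR3 (1.47 to 9.49), and these intervals cover counting error only. When the filter was dropped, neither passed edgeR's test (adjusted p = 0.0976 for EGR2 and 0.0575 for EGR3), so no difference between libraries is claimed. EGR4, which is chiefly neuronal, had 0 counts in all 6 libraries, which allows between 0.136 and 0.168 CPM per library at 3 counts.

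Both corepressors were higher in treated cells, NAB2 by far more than NAB1. NAB2 had 34.5, 35.0 and 33.7 CPM in DMSO replicates 1, 2 and 3 and 86.5, 87.1 and 85.1 CPM in treated ones. Replicates were tightly spaced in both groups and lay far apart between them. NAB2 rose by a log2 fold change of 1.33 (SE 0.06, 95% interval 1.21 to 1.44, edgeR adjusted p = 4.70e-18). NAB1 had 32.8, 32.2 and 32.4 CPM in the DMSO libraries and 34.4, 37.7 and 37.5 CPM in the treated ones. Treated replicate 1 lay closer to the DMSO libraries than to the other treated ones. NAB1 rose by 0.17 (SE 0.07, 95% interval 0.03 to 0.31, edgeR adjusted p = 0.0306). This call was lost with DESeq2 (adjusted p = 0.0595), without the filter (0.0716), and on leaving out any 1 library other than treated replicate 1, over a range of 0.00162 to 0.967 across all 12 alternatives.

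In DMSO cells the NAB2 and NAB1 transcripts had nearly the same count, with ratios of NAB2 to NAB1 counts of 1.05, 1.09 and 1.04 in replicates 1, 2 and 3. In treated cells the ratios were 2.52, 2.31 and 2.27. These counts are not corrected for gene length. Per kilobase of exonic sequence, NAB2 averaged 12.7 CPM and NAB1 7.02 CPM in DMSO cells. A ratio taken within a library does not depend on how libraries are scaled. This ratio was added after the values had been seen, and the groups did not overlap (exact two-sided permutation p = 0.10, the smallest that 3 against 3 can give).

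The ratio of EGR1 to NAB2, an activator against its corepressor, moved little. Whether EGR1 acts on NAB2 in these cells was not tested. It was 3.25, 3.32 and 3.68 in DMSO replicates and 3.95, 4.11 and 3.88 in treated ones, so treated libraries were higher without overlap but by 1.17-fold only. The EGR1 to NAB1 ratio moved 2.60-fold, from 3.62 ± 0.202 to 9.41 ± 0.584 (SD, n = 3 per group, exact permutation p = 0.10). The EGR1 to SRF ratio moved 2.77-fold, from 1.33 ± 0.0722 to 3.68 ± 0.164 (SD, n = 3 per group, exact permutation p = 0.10). Relative to NAB1 and to SRF, the EGR1 count was thus higher in every treated library than in any DMSO library, by a much wider margin than relative to NAB2. With DMSO replicate 3 left out, the groups' log2 difference in EGR1 to NAB2 was 0.28, and with DMSO replicate 1 left out it was 0.19. On leaving out any 1 treated replicate, the exact permutation p for EGR1 to NAB2 was 0.20. For EGR1 to NAB1 and EGR1 to SRF it stayed at 0.10 whichever library was left out. With all 6 libraries the two-sided exact p was 0.10 for all 5 ratios computed, before and after Benjamini-Hochberg adjustment, and the design allows no smaller value.

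**Figure D2:**
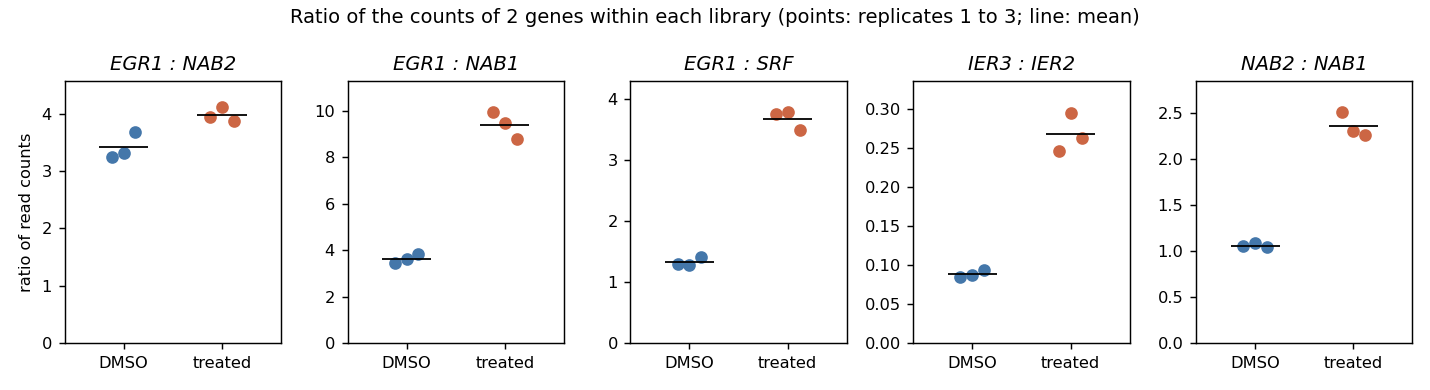
Ratio of the read counts of 2 genes within each library, on linear axes from 0; points are replicates 1 to 3 of the DMSO and treated groups and lines are means. EGR1 to NAB2 shifts from 3.42 to 3.98 on average, while EGR1 to SRF shifts from 1.33 to 3.68 and IER3 to IER2 from 0.0884 to 0.268.

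SRF is a MADS box factor named after the serum response. It had 86.9, 90.4 and 87.7 CPM in DMSO replicates and 90.8, 94.6 and 94.5 CPM in treated ones. The groups lay side by side without overlap, and DMSO replicate 2 and treated replicate 1 were almost level. The log2 fold change of 0.08 (SE 0.05) did not pass edgeR's test (adjusted p = 0.148), and its 95% interval ran from -0.02 to 0.18. SRF passed as higher with libraries scaled by their totals (log2 fold change 0.17, adjusted p = 0.00263) and with genes filtered at a mean of 5 CPM (0.12, adjusted p = 0.0247), with adjusted p-values up to 1 under the other alternatives. Scaling by totals moved the median of all tested genes by 0.09, which is more than the SRF difference itself.

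All 3 IER genes rose, IER3 by the most. IER3, a short stress-inducible protein tied to cell survival, had 14.3, 14.5 and 16.4 CPM in the DMSO libraries and 59.2, 71.2 and 63.2 CPM in the treated ones. The lowest treated library was more than 3 times the highest DMSO library. IER3 rose by 2.09 (SE 0.08, 95% interval 1.93 to 2.26, edgeR adjusted p = 4.25e-19), the highest in the set and rank 412 of 12339. IER5, a nuclear protein linked to heat shock factor activity, had 68.5, 66.2 and 65.6 CPM in the DMSO libraries and 99.1, 113 and 104 CPM in the treated ones. It rose by 0.66 (SE 0.05, 95% interval 0.55 to 0.77, edgeR adjusted p = 1.05e-11). IER2, a nuclear immediate early protein, had 170, 166 and 175 CPM in the DMSO libraries and 240, 242 and 241 CPM in the treated ones. It rose by 0.50 (SE 0.04, 95% interval 0.42 to 0.58, edgeR adjusted p = 4.13e-12). The groups of all 3 genes were separate, and the ratio of IER3 to IER2 counts went from 0.0884 ± 0.00479 to 0.268 ± 0.0244 (SD, n = 3 per group, exact permutation p = 0.10), a 3.03-fold shift.

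**Figure D3:**
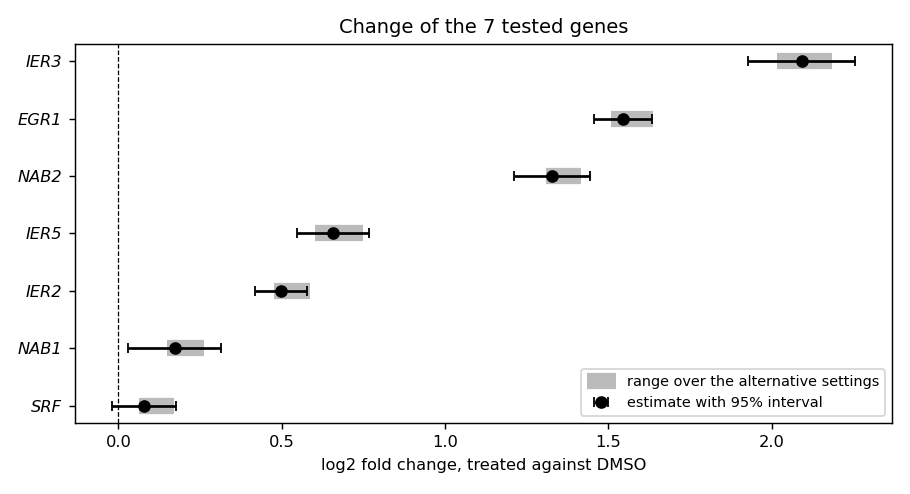
Log2 fold change of the 7 tested genes, treated against DMSO; points with bars are the estimates with their 95% intervals, and grey bands span 12 alternative settings. IER3, EGR1 and NAB2 lie above 1, IER5 and IER2 between 0.4 and 0.8, and the interval of SRF includes 0.

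Levels of different genes were compared per kilobase of exonic sequence, as RPKM, with lengths from GENCODE 29. In DMSO cells IER2 was the most abundant at 55.5 ± 1.50 RPKM (SD, n = 3), followed by EGR1 (37.4 ± 1.91), SRF (21.0 ± 0.431), IER5 (15.9 ± 0.376), NAB2 (12.7 ± 0.244), IER3 (11.1 ± 0.861) and NAB1 (7.02 ± 0.0671). In treated cells EGR1 came first at 109 ± 4.54 RPKM, ahead of IER2 (78.4 ± 0.261), IER3 (47.6 ± 4.50), NAB2 (31.8 ± 0.378), IER5 (25.1 ± 1.69), SRF (22.2 ± 0.519) and NAB1 (7.91 ± 0.408). Neighbours in both orders did not overlap between libraries, except EGR3 and EGR2, which followed NAB1 at under 0.1 RPKM on average and could not be ordered. IER3 moved from the sixth to the third place, and SRF from the third to the sixth. The lengths join the exons of all basic isoforms, so these levels are lower bounds where a shorter isoform dominates.

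Among the treated libraries, replicate 2 had the highest CPM of all 9 detected members. The corresponding share over all tested genes was 35.1%. The 9 include EGR2 and EGR3, which were not tested and had too few counts to order libraries. The lead over treated replicate 3 was narrow for SRF (94.6 against 94.5 CPM), NAB1 (37.7 against 37.5 CPM) and IER2 (242 against 241 CPM). In the DMSO group the highest library differed between members (2, 3 and 4 members for replicates 1, 2 and 3). Without treated replicate 2, EGR1 was higher by 1.51, NAB2 by 1.32, IER3 by 2.02, IER5 by 0.60 and IER2 by 0.49 on the log2 scale, each still passing edgeR's test.

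The 3 tested genes whose log2 CPM profile over the 6 libraries lay nearest to that of EGR1 were SOCS2, PYGB and C1RL. Likeness was the root mean square distance between profiles centred on their own means, and was 0.05, 0.05 and 0.06 log2 units. SOCS2, an inhibitor of cytokine signalling, averaged 97.9 ± 3.77 CPM with DMSO against 277 ± 11.98 CPM after treatment (SD, n = 3 per group). PYGB, a glycogen phosphorylase, had 28.0 ± 0.830 and 83.3 ± 0.617 CPM, and C1RL, a protease related to complement C1r, had 5.22 ± 0.552 and 16.4 ± 1.12 CPM. Of the other members NAB2 was nearest to EGR1 (0.13) and SRF farthest (0.73). With only 1 contrast in the series, these distances mostly reflect the size of the change between the groups.

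Genes around the set were taken from 5 lists, and each count is set beside the 66.4% of all tested genes that changed (33.8% higher, 32.7% lower). With library totals 5048 of all tested genes were higher and 3189 lower, and their median was 0.10 in place of 0.01. Of 8 SRF cofactors 7 were tested, and 3 of these rose, 0 fell (0 also with DESeq2 and at an unadjusted p under 0.05) and 4 did not pass, with a median log2 fold change of 0.19. The 3 called make up 42.9% of the tested cofactors, a smaller share than the 66.4% over all genes. The median was 0.29 without treated replicate 1 and 0.13 without treated replicate 2. Without DMSO replicate 3 or without treated replicate 3, 2 rose and 1 fell. ELK1, a ternary complex factor and target of ERK, rose from 91.2 ± 2.99 to 144 ± 6.57 CPM (SD, n = 3 per group). MKL1, the actin-sensing cofactor also called MRTF-A, rose by 0.31 (SE 0.08, edgeR adjusted p = 0.000913). MKL2, its paralog, was the third riser at 0.23 and was named after its values had been seen. When a fold change of at least 1.2 was required, ELK1 alone passed, beside 4765 of all 12339 tested genes.

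Of 43 other immediate early genes 35 passed the filter. There were 21 that rose and 7 that fell, 7 missed the threshold, and the median was 0.44. The 28 called make up 80.0%, beside 66.4% of all tested genes. ATF3, a stress-inducible transcription factor, rose from 8.72 ± 0.764 to 75.6 ± 14.6 CPM and JUN, an AP-1 subunit, from 22.4 ± 1.28 to 73.0 ± 9.39 CPM. ID1, an inhibitor of basic helix-loop-helix factors, fell from 75.8 ± 1.01 to 38.6 ± 2.62 CPM and MYC from 435 ± 2.19 to 309 ± 8.26 CPM. Some genes could enter this count through the treated libraries alone. KLF4, named after its values had been seen, had 6 counts in all DMSO libraries and 92 in the treated ones. FOS was chosen in the same way, as the AP-1 gene most used to read the serum response. It rose from 4.09 ± 1.17 to 13.5 ± 1.83 CPM, below the levels of EGR1 in either group. DUSP1 and FOSL1, also named after their values had been seen, were among the 7 that fell, with log2 fold changes of -0.80 and -0.31.

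Of 30 actin and cytoskeletal genes known as SRF targets 28 were tested. Of these 17 rose, 8 fell and 3 did not pass, with a median of 0.17. The 25 called make up 89.3%, beside 66.4% of all tested genes. With library totals 18 rose and 5 fell, and the median was 0.26. TPM4, a tropomyosin, rose from 61.8 ± 1.73 to 287 ± 28.97 CPM and ACTG1, a cytoplasmic actin, from 1526 ± 8.29 to 2680 ± 138 CPM. CNN2, a calponin, fell from 228 ± 1.30 to 114 ± 5.17 CPM and FHOD1, a formin, from 146 ± 3.98 to 83.5 ± 10.8 CPM. The list thus held members that changed in either direction. Requiring a fold change of at least 1.2 left 11 of the 25 calls among the 28 tested. At that setting 4765 of all 12339 tested genes were called.

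Of 27 genes reported elsewhere as EGR1 targets 24 were tested. Of these, 11 rose and 6 fell, 7 missed the threshold, and the median was 0.34. The 17 called make up 70.8%, close to the 66.4% of all tested genes. The median was 0.22 without treated replicate 1 and 0.17 with the filter at 5 CPM, which left 16 of the genes. FN1, which encodes fibronectin, rose from 31.2 ± 2.85 to 169 ± 6.49 CPM and GDF15, a circulating stress signal, from 24.6 ± 0.703 to 151 ± 14.0 CPM. SLC9A3R1, a membrane scaffold protein, fell from 104 ± 2.73 to 60.9 ± 3.15 CPM. GDF15 is also known as a target of the stress factor ATF4.

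Of 20 genes of the RAS and ERK pathway, all tested, 8 rose, 7 fell and 5 did not pass, with a median of 0.02. The 15 called make up 75.0%, near the 66.4% of all tested genes. The median ran from -0.01 to 0.03 on leaving out 1 library. With library totals 10 rose and 4 fell, and the median was 0.11. MKNK2, a kinase downstream of ERK, rose from 185 ± 0.173 to 373 ± 1.88 CPM and MAP2K2, which encodes MEK2, by 0.45 (SE 0.04, edgeR adjusted p = 3.95e-10). RPS6KA1, an ERK-activated kinase, fell by 0.47 and HRAS by 0.44 on the log2 scale. Transcript levels do not measure the activity of these kinases. With a minimum fold change of 1.2 the list held 6 calls instead of 15, beside 4765 of all 12339 tested genes.

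**Figure D4:**
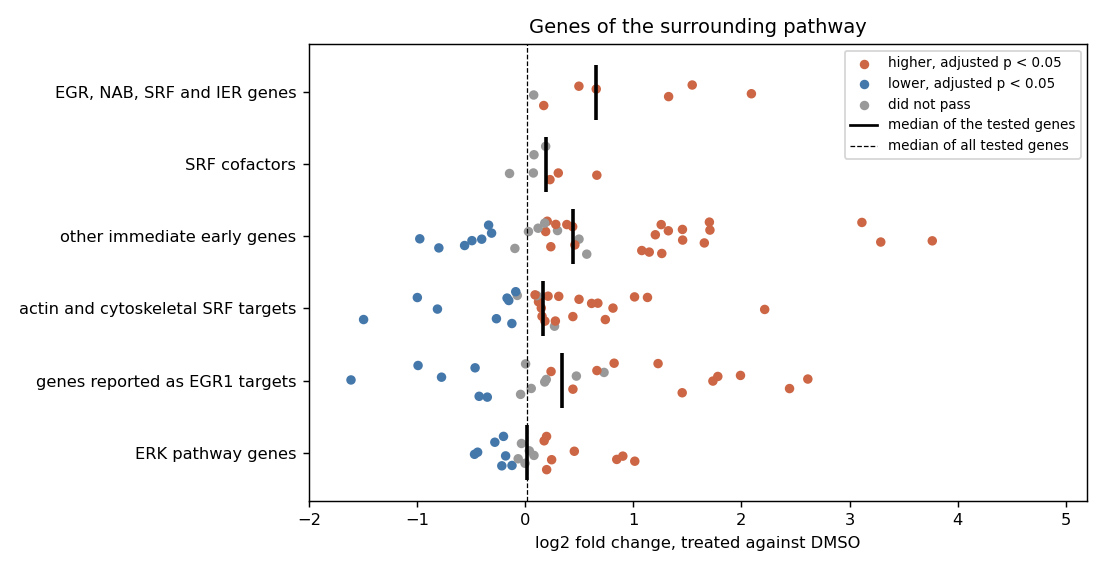
Log2 fold change, treated against DMSO, of every tested gene of the member set and of the 5 surrounding lists; colour gives the call, each black bar is the median of the tested genes, the dashed line is the median of all tested genes (0.01), and the vertical scatter within a list has no meaning. The ERK pathway genes centre on that line, while the immediate early genes spread from below -0.9 to above 3.

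Depth in genes ran from 18408826 to 22750278 counts per library. Reads outside annotated features made up 10.9% to 12.1% of DMSO libraries and 11.2% to 13.1% of treated ones. Erythroid markers of K562 were present in all libraries, with the 10 listed genes summing to 7224 to 7407 CPM in DMSO libraries and to 3733 to 3895 CPM in treated ones. Of markers of other cells, 5 of 7 lymphoid, 5 of 8 fibroblast and endothelial and 4 of 5 epithelial genes stayed under 1 CPM everywhere, and MS4A1, CD8A, LUM, CDH5, KRT5 and KRT14 had no count. The sums were 8.15 to 9.21 CPM (DMSO) and 10.5 to 11.9 CPM (treated) for the lymphoid list, 10.3 to 13.9 and 7.28 to 11.6 CPM for the fibroblast and endothelial list, and 102 to 103 and 60.6 to 63.6 CPM for the epithelial list, which was nearly all EPCAM. Whether these shifts have a part in the values of the EGR, NAB, SRF and IER genes was not tested. Nothing in the labels says that replicates came from separate cultures, and the p-values therefore reflect library-to-library spread, possibly technical.

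The authors' deposited table, which compares a group B with a group A that its header does not name, gave fold ratios of 2.89 for EGR1, 2.48 for NAB2, 4.24 for IER3, 1.56 for IER5 and 1.40 for IER2. The authors' deposited table gave 1.11 for NAB1 (its adjusted p = 0.112) and 1.05 for SRF (its adjusted p = 0.412), and neither passed a threshold of 0.05 there. In the authors' deposited table EGR2 and EGR3 had ratios of 3.84 and 3.55 with adjusted p-values of 0.237 and 0.141.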

How the data were processed

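For each of the 6 libraries the authors deposited raw counts of reads by gene symbol, used here unchanged. STAR, Cufflinks, DESeq2 and hg19 are listed without roles, per the submitters' processing notes. Which program counted the reads, and with which strand setting, is not given in the sources used here. The 5 rows of unassigned reads entered neither library sizes nor tests. The authors also deposited a table of their own comparison with a fold ratio, a p-value and an adjusted p-value, per the file headers, and its values are quoted only as theirs.

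Genes were tested with edgeR 4.0.16 in R 4.3.3 (quasi-likelihood test, two-sided, TMM scaling, filterByExpr with a minimum count of 10, treatment as the only term), which kept 12339 of 23710 symbols. P-values were adjusted by Benjamini-Hochberg over all of them. SE is the log2 fold change divided by the square root of F. CPM use TMM-scaled library sizes. The edgeR, DESeq2 and block fits were also run on simulated counts in which far fewer genes changed than were called here. That simulation does not test the scaling under so broad a change, nor the ratio tests. The alternatives were DESeq2 1.42.0, library totals, no filter, a filter at a mean of 5 CPM, a replicate block, a minimum fold change of 1.2 and leaving out each library. Replicate pairs differed beyond counting noise (chi-square per degree of freedom 2.38 to 6.22) and were kept apart.

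The members and lists were chosen with earlier results of these data known. Named genes were all 10 members, from each list the 2 risers and 2 fallers with the smallest p, and the 3 genes most like EGR1 in profile (pseudocount 0.5 CPM). A gene under this rule is not reported here, and the counts of lists include it. Promoters are RefSeq's on GRCh38.p14 and exonic lengths GENCODE 29's, matched by symbol. The files use hg19, so no position was carried between builds. Where strand use is unknown, genes overlapping on opposite strands cannot be told apart.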

Additional observations from a re-analysis of the deposited data

How the results depend on the processing

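EGR1, NAB2, IER2, IER3 and IER5 kept their direction and passed under all 12 alternatives, with log2 fold changes of 1.51 to 1.64, 1.31 to 1.42, 0.47 to 0.59, 2.02 to 2.18 and 0.60 to 0.75. The call for NAB1 was lost with DESeq2 (log2 fold change 0.17), without a low-count filter (0.16) and with a minimum fold change of 1.2 (0.17), and its values ranged from 0.15 to 0.21 on leaving out 1 library; the cause was not tested. SRF passed with library totals (0.17) and with a filter at 5 CPM (0.12), which also changes the genes that set the TMM scaling. A minimum fold change of 1.2 called 4765 genes in place of 8198, 1 SRF cofactor, 11 cytoskeletal genes and 6 ERK pathway genes, since it tests against a stricter null. Library totals called 5048 genes higher and 3189 lower, against 4167 and 4031. EGR2, EGR3 and EGR4 have no value under settings that filter low counts.

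The libraries share only replicate numbers, and deviations of same-numbered libraries correlated at -0.01, 0.00 and -0.06. With a replicate block 8050 genes were called, 6 of the members among them, and the block changed no call of a member. In the block the EGR1 to NAB2 log2 difference was 0.22, a mean that pairing cannot change, so it is no check on that value. The exact sign-flip p over the pairs was 0.25, the lowest that test can give here. At 3 counts a library, levels under 0.136 to 0.168 CPM cannot be measured.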
